A study of Mus musculus with 32 samples.

Results

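The genes described here encode the subunits of oxidative phosphorylation, the machinery in the inner mitochondrial membrane that turns electron flow into ATP. They were chosen by name. Members were the protein-coding mouse genes whose symbols begin with Ndufa, Ndufb, Ndufc, Ndufs, Ndufv, Uqcr, Cox4, Cox5, Cox6, Cox7, Cox8 or Atp5, together with the mitochondrially encoded mt-Nd, mt-Co, mt-Cytb and mt-Atp genes. Ndufa4l2, the Ndufaf assembly factors and pseudogenes were left out. This rule found 93 members among 25700 genes, of which 80 are nuclear and 13 lie on the mitochondrial genome. The nuclear members comprise 36 of complex I, 8 of complex III, 19 of complex IV and 17 of complex V, and the mitochondrial ones comprise 7, 1, 3 and 2 in the same order. Ndufa4 was counted with complex IV, where its protein resides.

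Complex I takes electrons from NADH, complex III passes them from ubiquinol to cytochrome c, complex IV gives them to oxygen, and complex V, the ATP synthase, uses the resulting proton gradient. The catalytic heart of complexes I, III and IV is partly encoded in the mitochondrion and transcribed there by a separate polymerase, whereas most subunits are made from nuclear genes and imported, so each complex needs both genomes. Tendon is poor in vessels, and tendon cells are regarded as having a low oxidative capacity at rest.

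Bulk RNA was sequenced from tendon assembloids, in which a core explant of mouse tail tendon fascicles was embedded in a hydrogel of rat collagen and cultured for 7 days. Per the paper, the culture medium held macrophage-colony stimulating factor at 20 ng/ml, and oxygen was at 20%. Cores came from wild-type (WT) mice or from interleukin-6 knock-out (KO) mice of the line B6.129S2-Il6tm1Kopf/J, male and female, aged 12 to 15 weeks. The hydrogel was cell-free, held fibroblasts (called progenitors in the sample labels) from Achilles tendons of WT mice, or held macrophages, and the macrophages came only with WT cores. Core samples formed 5 groups of 4 (WT cell-free, WT with fibroblasts, WT with macrophages, KO cell-free, KO with fibroblasts), and the fibroblast hydrogels around WT and KO cores formed 2 groups of 6. Each core sample pooled 20 to 24 explants of 1 mouse. Each hydrogel sample pooled 2 hydrogels and held seeded fibroblasts, mixed from 6 mice and at passage 2 to 4, along with cells that had left the core. A hydrogel around a KO core therefore contains WT cells, and core and hydrogel differ in tissue, cell origin and culture history at once.

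Total estimated counts ran from 20.4 to 59.9 M per library, and levels are given as CPM, counts scaled to the same library total, unless said otherwise. Hydrogel libraries detected 18044 to 18809 genes and core libraries 21470 to 23317. Tenocyte and fibroblast markers such as Col1a1 and Fmod were abundant in all groups, and macrophage markers such as Lyz2 and Mrc1 were also present in all of them, the cell-free cores included. Il6, the targeted gene, was not lower in the libraries labelled KO: its mean was 10.9 CPM in KO against 6.48 CPM in WT cell-free cores, 19.9 against 8.01 in cores with fibroblasts, and 14.4 against 7.20 in hydrogels. Directions drawn below from "KO" therefore rest on the labels, since interleukin-6 protein was not analysed here. In bulk samples such as these, fewer cells of a type and less RNA per cell cannot be told apart.

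The mitochondrially encoded members fell into a measured and a nearly empty set. Nuclear genomes carry copies of mitochondrial DNA, annotated as pseudogenes. For each member, the share of its 31-base words that also occur in an annotated mouse pseudogene was counted, 31 bases being a word length used in read matching. The first 90 bases of mt-Co2, a complex IV core subunit, are shown with those of the pseudogene Gm28661 because mt-Co2 had almost no counts. The positions are chrM:7013-7102 on the plus strand and chr1:24615476-24615565 on the minus strand of GRCm38, read from that build's transcripts, since no genome of the deposited files' own build, GRCm39, was used here.
mt-Co2: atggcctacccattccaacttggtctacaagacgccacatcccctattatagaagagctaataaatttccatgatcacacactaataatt
Gm28661: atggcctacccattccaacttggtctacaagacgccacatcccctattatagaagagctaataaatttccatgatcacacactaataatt
The 2 stretches are the same, and over the 681 aligned bases mt-Co2 and Gm28661 had 0 mismatches. A stretch of mt-Co1, the catalytic subunit of complex IV and the most abundant member, is shown for contrast with the pseudogene Gm13340, with the bases that differ in capitals. It covers transcript bases 445 to 534, at chrM:5772-5861 on the plus strand and chr2:22589114-22589203 on the minus strand.
mt-Co1: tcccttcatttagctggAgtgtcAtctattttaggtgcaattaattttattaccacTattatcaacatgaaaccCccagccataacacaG
Gm13340: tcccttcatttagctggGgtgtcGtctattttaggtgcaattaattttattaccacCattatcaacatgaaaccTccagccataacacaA
These 90 bases hold 5 mismatches, and the whole 1545 bases hold 37, an identity of 97.6%.

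Measured this way, 5 of the 6 members with means below 10 CPM had nearly all of their words in a pseudogene. The shares were 100% for mt-Co2 (mean over 32 libraries 0.0524 CPM), 99.9% for mt-Co3 (0.785 CPM), 99.5% for mt-Atp6 (0.0315 CPM), 98.9% for mt-Nd4l (0.285 CPM) and 98.1% for mt-Nd3 (2.70 CPM). The sixth, mt-Atp8, had a share of 7.47% and a mean of 0.0110 CPM, and its transcript of 204 bases is the shortest of the 13. Among the 7 members above 10 CPM the shares were 0% for mt-Nd1 (674 CPM), 6.55% for mt-Cytb (733 CPM), 7.36% for mt-Nd6 (55.8 CPM), 13.5% for mt-Nd2 (156 CPM), 16.8% for mt-Nd5 (348 CPM), 62.8% for mt-Nd4 (208 CPM) and 63.9% for mt-Co1 (5832 CPM). The mt-Nd4 words that are shared come from Gm28439, whose 876 aligned bases match mt-Nd4 without a mismatch. Low level and high share thus went together for 5 members and apart for mt-Atp8. Whether the counting divided reads between a member and its copy was not tested, and levels of these pseudogenes were not analysed here. The messages of a strand are cut from a common precursor, and the 6 low members are not read as absent. Below, sums over "7 measured" mitochondrial members leave out these 6.

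**Figure D1:**
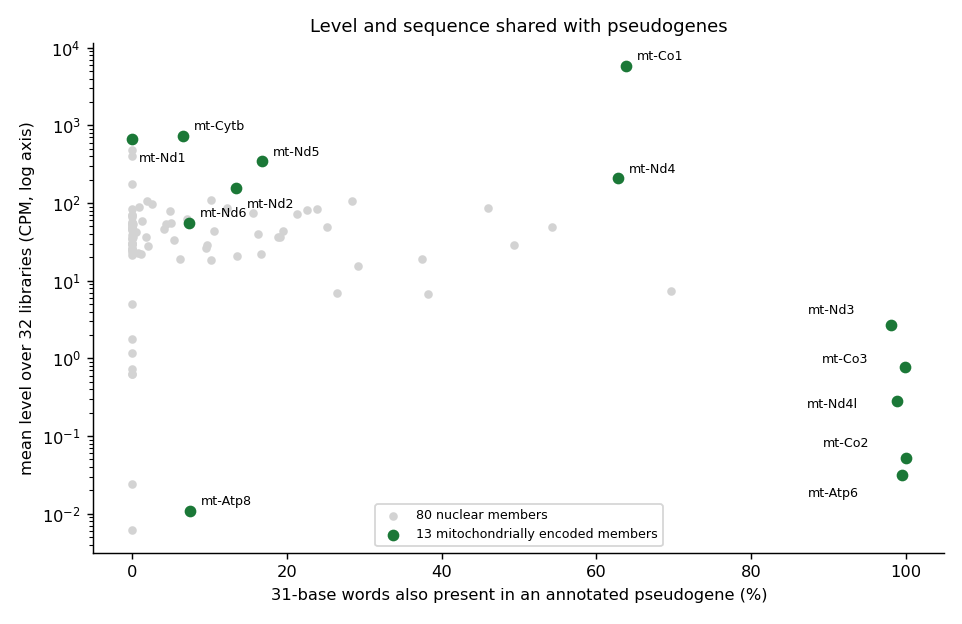
Mean CPM of each of the 13 mitochondrially encoded members (green) and the 80 nuclear members (grey) over 32 libraries (log axis) against the percentage of its 31-base words found in an annotated pseudogene. The 5 green members at 98.1% or more have means of 2.70 CPM or less, mt-Atp8 lies low at 7.47%, and mt-Co1 lies highest at 63.9%.

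Per kilobase of annotated transcript, a scale that depends on the transcript taken for each gene, mt-Co1 stood first at a mean of 3775 CPM per kilobase. It was followed by mt-Nd1 at 705 and mt-Cytb at 640. The highest nuclear members were Atp5b, the catalytic beta subunit of ATP synthase, at 249 CPM per kilobase, and Cox4i1, the ubiquitous form of complex IV subunit 4, at 227. Within complex I the range ran from Ndufb2 at 5.24 to Ndufv3 at 94.7 CPM per kilobase. The place of Ndufb2 rests on the transcript length taken. Without division by length it stood at 21.4 CPM in WT cell-free cores, above Ndufb4 at 5.67 and Ndufs5 at 5.18. Within complex III the range ran from Uqcrq at 17.2 to Uqcrh at 137, and in complex V from Atp5s at 3.11 to Atp5b. In complex IV the lowest was Cox8c, a testis form of subunit 8, at 0.0137 CPM per kilobase. Cox8c and Cox7b2 had means of 0.00626 and 0.0239 CPM and passed the filter on low counts in no comparison, so at most 78 of the 80 nuclear members were tested.

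Summed over each library, the nuclear members took more of the counts in hydrogels than in cores and the mitochondrial members took less. The 80 nuclear members held 0.543% ± 0.0282 (SD, n = 6) of counts in hydrogels around WT cores and 0.573% ± 0.0538 (n = 6) around KO cores. In cores they held 0.358% ± 0.0291 (n = 4) for WT cell-free, 0.360% ± 0.0159 for WT with fibroblasts, 0.326% ± 0.0256 for WT with macrophages, 0.385% ± 0.0928 for KO cell-free and 0.346% ± 0.00584 for KO with fibroblasts. The spread of the KO cell-free group came from its replicate 1, which reached 0.517% and overlapped the lowest hydrogels at 0.495%. All other core libraries lay below every hydrogel.

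The 7 measured mitochondrial members moved the opposite way, holding 0.606% ± 0.0339 of counts in hydrogels around WT cores and 0.549% ± 0.0811 around KO cores. The core groups held 0.955% ± 0.183 (WT cell-free), 0.838% ± 0.0930 (WT with fibroblasts), 1.00% ± 0.142 (WT with macrophages), 0.986% ± 0.118 (KO cell-free) and 0.894% ± 0.166 (KO with fibroblasts). No hydrogel, at 0.428 to 0.654%, reached the lowest core, at 0.717%. This separation rests on mt-Co1, which made up most of the sum. Without mt-Co1 the ranges of hydrogels and cores overlapped. Hydrogels then reached 0.171% around WT cores (replicate 1) and 0.241% around KO cores (replicate 5). Cores went down to 0.156% in WT cell-free replicate 4 and 0.169% in replicate 3 of WT with fibroblasts. The 5 core groups overlapped each other, as did the 2 hydrogel groups.

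The ratio of mitochondrial members, mt-Co1 included, to nuclear members was 1.04 ± 0.148 over the 12 hydrogels and 2.69 ± 0.604 over the 20 cores. Its ranges, 0.781 to 1.25 and 1.63 to 3.80, did not meet. The sample titles carry a number, 150, 152 or 154, which is called the run code here. The labels do not say what it stands for. Each code holds both hydrogels and cores. Within these codes the hydrogel over core ratio of the nuclear share was 1.58, 1.68 and 1.41. That of the mitochondrial share, mt-Co1 included, was 0.657, 0.610 and 0.610, and the ranges stayed apart in each.

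**Figure D2:**
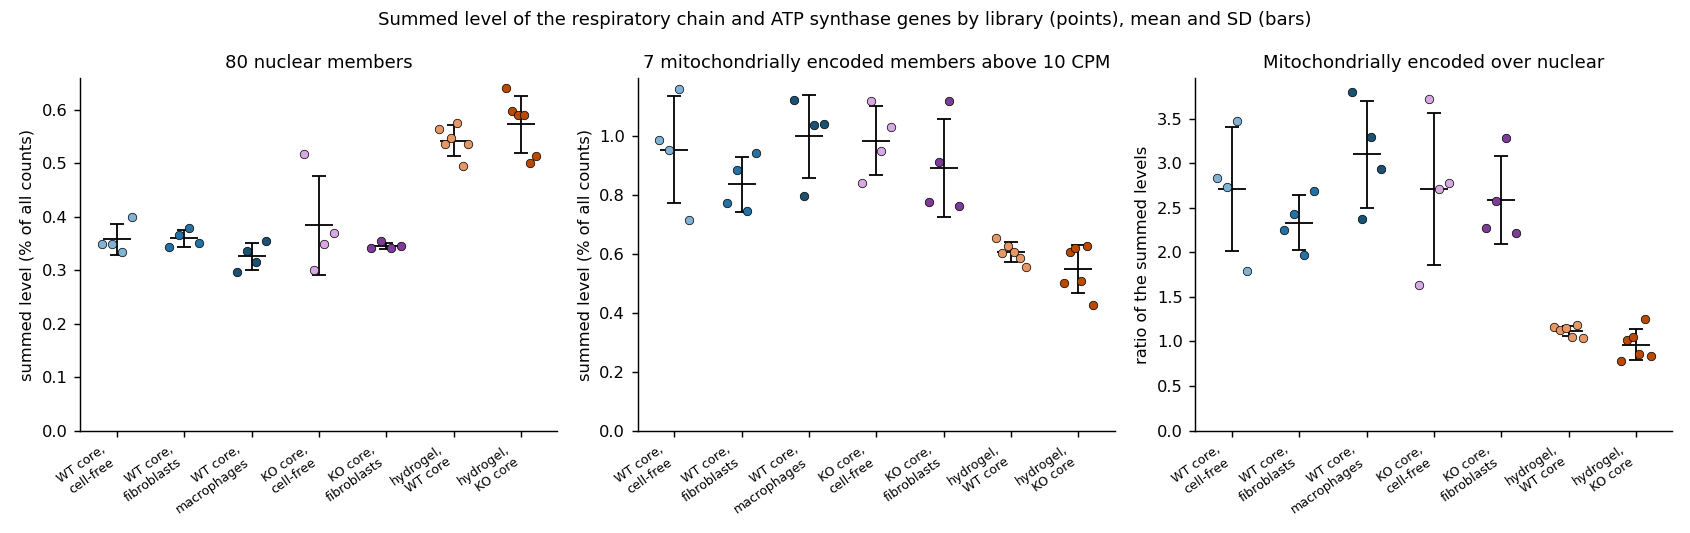
Percentage of each library's counts held by the 80 nuclear members (left) and by the 7 measured mitochondrially encoded members (middle), and their ratio (right), in the 7 groups. Points are libraries, and bars give the mean and SD. In hydrogels the nuclear share is 0.495 to 0.642% and the mitochondrial share 0.428 to 0.654%, against 0.296 to 0.517% and 0.717 to 1.16% in cores.

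To ask how the compartments of 1 assembloid differ, hydrogels were compared with cores cultured with fibroblasts, separately for each genotype, with edgeR's quasi-likelihood test and Benjamini-Hochberg adjustment over all genes tested. A member was called at an adjusted p under 0.05. Around WT cores, 73 of 78 tested nuclear members were higher in the hydrogel and 2 were lower, with a median log2 fold change of 0.61, or 1.52-fold. Of all 16037 genes tested, 33.9% were called higher and 35.4% lower, with a median of −0.001. CPM ranges did not overlap for 67 nuclear members that were higher in all 6 hydrogels than in all 4 cores, and this held for 22.6% of all genes tested. Of 9 tested mitochondrial members 7 were lower, with a median of −0.52.

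KO assembloids gave the same directions, in that 71 of 78 nuclear members were higher and 2 lower, with a median of 0.80 or 1.74-fold, against 25.5% and 30.2% of all 16084 genes tested. The ranges of 71 higher members did not overlap, against 14.7% of all genes. Of 9 mitochondrial members 5 were lower, with a median of −0.60. That last count moved from 2 without replicate 3 of the KO cores with fibroblasts to 8 without replicate 5 of the hydrogels around KO cores, and it was 3 without replicate 4 of those cores or without hydrogel replicate 1 or 6. The pools shared no core sample between genotypes, although the seeded fibroblasts were WT in both.

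**Figure D3:**
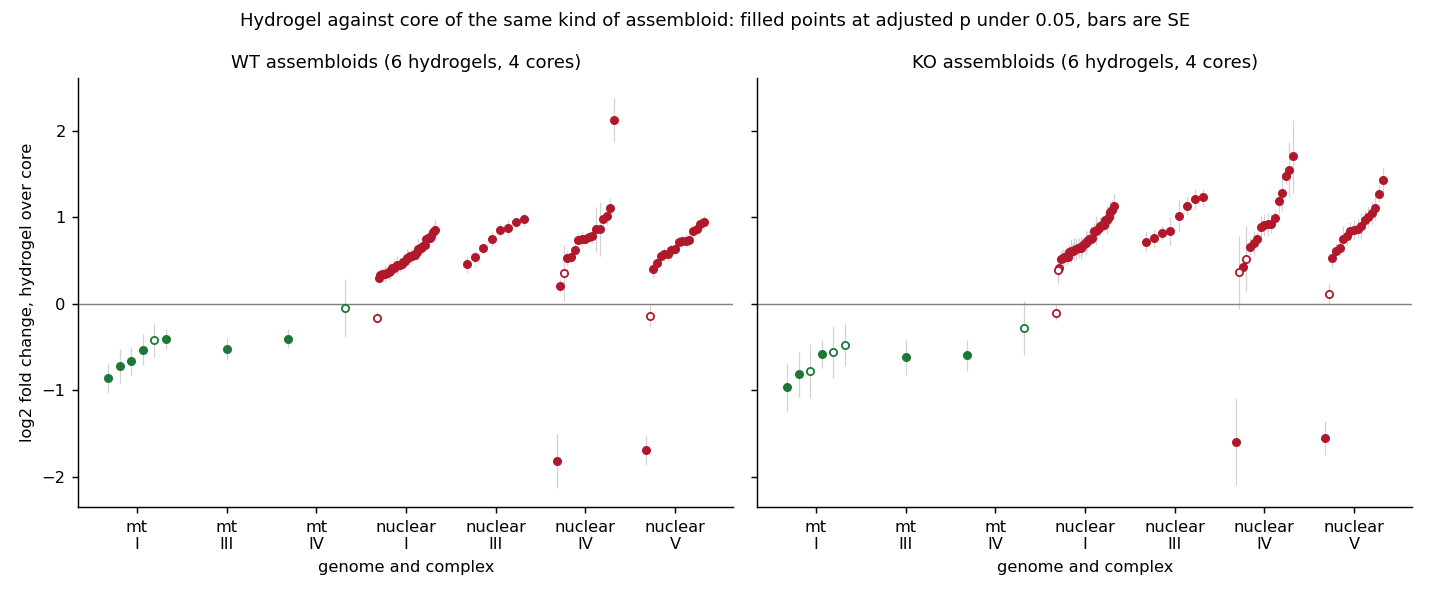
Log2 fold change, hydrogel over core with fibroblasts, of every tested member by genome and complex, in WT (left) and KO (right) assembloids. Filled points passed an adjusted p of 0.05, bars are standard errors, and the line marks 0. Nuclear members lie mostly above 0 (median 0.61 and 0.80) and the mitochondrial ones below it (median −0.52 and −0.60).

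In complex I, 35 of 36 nuclear members were higher in WT hydrogels (median 0.51) and 34 of 36 in KO (median 0.70). Ndufa2, a small accessory subunit of the NADH-oxidising arm, had the lowest p of the complex in WT. It stood at 33.5, 37.1, 38.8 and 31.8 CPM in the 4 WT cores and at 54.6 (lowest), 57.9 (median) and 60.1 CPM (highest) in the 6 hydrogels. All hydrogels lay above all cores, and the log2 fold change was 0.75 ± 0.05 (SE; adjusted p = 5.57e-07). Ndufs4, an accessory subunit whose loss destabilises the complex, ranged from 15.6 to 18.1 CPM in KO cores and from 26.2 to 31.4 in KO hydrogels, again without overlap (0.88 ± 0.07, adjusted p = 1.64e-05). The 7 nuclear core subunits, which carry the redox centres, had a median of 0.42 in WT with 7 called, and the 29 accessory subunits had 0.55 with 28 called; the difference between these medians was not tested. Ndufab1, the mitochondrial acyl carrier protein that also serves fatty acid and lipoic acid synthesis, was the exception. It was at −0.17 (adjusted p = 0.0525) in WT and −0.11 in KO and was not called in either.

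All 8 complex III members were higher in both genotypes, with medians of 0.80 and 0.93. Uqcr10, a small subunit at the membrane, had the lowest p of all members in WT. Its cores stood at 23.8, 25.8, 28.3 and 22.7 CPM and its hydrogels at 43.7, 47.2 and 49.9 CPM (lowest, median, highest). The hydrogels thus held 1.93 times the cores' level (log2 0.95 ± 0.06, adjusted p = 3.58e-07), and no ranges met. In KO the cores stood at 25.5, 24.02, 22.7 and 23.4 CPM and the hydrogels at 47.5, 53.0 and 59.7 CPM (1.23 ± 0.10, adjusted p = 1.69e-05). Uqcrfs1, the Rieske iron-sulfur protein, was higher by 0.87 in WT, and Uqcrq by 0.98.

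In complex IV, 15 of 17 members were higher and 1 was lower in WT (median 0.75), and 14 were higher and 1 lower in KO (median 0.91). Ndufa4, now taken as a complex IV subunit, stood at 34.7, 32.7, 29.5 and 30.3 CPM in KO cores and at 72.5, 81.4 and 98.04 CPM in KO hydrogels. Its change of 1.48 ± 0.10 (2.79-fold, adjusted p = 8.50e-06) had the lowest p of all members in KO, and in WT it was 1.02 ± 0.11. Cox5a, which binds subunit 4, was higher by 1.11 in WT. In complex V, 15 of 17 were higher and 1 lower in each genotype, with medians of 0.64 and 0.86. Atp5g1, one of the genes for the rotor's c subunit, stood at 22.6, 22.4, 27.1 and 20.6 CPM in WT cores and at 41.6, 43.0 and 44.7 CPM in WT hydrogels (0.93 ± 0.07, adjusted p = 9.36e-07). Atp5e, the epsilon subunit of the central stalk, was higher by 0.86 ± 0.07 in WT and by 1.43 ± 0.14 in KO.

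Atp5l, the g subunit of the membrane part, went against its complex. WT cores stood at 9.52, 9.63, 8.96 and 7.27 CPM and WT hydrogels at 2.05, 2.38 and 4.11 CPM (−1.69 ± 0.17, adjusted p = 6.30e-06). It was lower in KO too, at −1.56 ± 0.20 (adjusted p = 1.28e-04). Of its 31-base words 69.6% occur in a pseudogene, Gm10221, and the division of reads between them was not tested. It is 1 of 10 tested nuclear members with over 25% of words in pseudogenes. In WT, 9 of these 10 were higher and Atp5l was lower, with a median of 0.46, and 64 of the other 68 were higher with a median of 0.64. Atp5s, a coupling factor B-like gene, was at −0.15 (adjusted p = 0.320) in WT.

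Tissue forms of complex IV subunits did not all follow the ubiquitous ones. The ubiquitous Cox4i1 stood at 127, 135, 139.9 and 136 CPM in WT cores and at 208, 220.3 and 234 CPM in WT hydrogels (log2 fold change 0.75), with no overlap. Cox6a1, Cox6b1, Cox7a2 and Cox8a changed by 0.79, 0.75, 0.98 and 0.77, and Cox7a2l, which takes part in supercomplex assembly, by 0.53. All 6 were also higher in KO, by 0.66 to 1.18. Of the muscle forms, Cox8b fell: WT cores stood at 1.01, 0.864, 1.16 and 0.643 CPM and WT hydrogels at 0.0986, 0.238 and 0.384 CPM (−1.82 ± 0.31, adjusted p = 2.59e-04). In KO its ranges overlapped, and it was lower by 1.59 ± 0.50 on the log2 scale (adjusted p = 0.0194). Cox6a2 was higher in both, by 0.87 ± 0.31 (adjusted p = 0.0264) and 1.71 ± 0.42 (adjusted p = 0.00573), though at below 2 CPM in all libraries. Cox7a1 was not called in either (0.36, adjusted p = 0.341 in WT). Cox6b2, a testis form, had the greatest log2 fold change among the nuclear members called higher in WT, at 2.13 ± 0.26 (adjusted p = 2.08e-05), from 0.239, 0.384, 0.199 and 0.257 CPM in cores to 0.828, 1.11 and 1.61 CPM in hydrogels. It stayed far below Cox6b1, which had 203 CPM per kilobase in WT hydrogels against 1.98 for Cox6b2.

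Skeletal muscle marker genes were read beside Cox8b. Of 8 tested, 4 were lower in WT hydrogels and 3 in KO, against 35.4% and 30.2% of all genes. Their summed level was 15.3 to 27.2 CPM in WT cores with fibroblasts and 5.62 to 9.46 CPM in WT hydrogels, and 7.57 to 19.7 against 3.52 to 19.2 CPM in KO, where the ranges overlap. Tnni2, a troponin of fast muscle, averaged 1.14 CPM in WT cores with fibroblasts and 1.62 CPM in WT hydrogels, and 1.33 and 2.28 CPM in KO. The defining genes Acta1 and Ckm were below 2 CPM in all libraries and Pvalb below 0.5. Their part in the Cox8b result was not tested.

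All 9 tested mitochondrial members lay below 0 in both genotypes. mt-Co1 stood at 5676, 6633, 5782 and 6716 CPM in WT cores and at 4253, 4604 and 4840.0 CPM (lowest, median, highest) in WT hydrogels (−0.41 ± 0.11, adjusted p = 0.00576). Every hydrogel lay below every core, as it did in KO, where the cores stood at 5781, 6749, 7810.2 and 5573 CPM and the hydrogels at 2877, 3929 and 4745 (adjusted p = 0.0163). mt-Nd2 had the largest difference in WT, from 142, 167, 108 and 199 CPM in cores to 66.0, 85.4 and 99.2 CPM in hydrogels (−0.86 ± 0.17, adjusted p = 6.99e-04). mt-Nd4 (−0.67), mt-Nd6 (−0.72), mt-Cytb (−0.52), mt-Nd1 (−0.41) and the low mt-Nd3 (−0.53) were also called lower in WT. mt-Nd5 was at −0.42 (adjusted p = 0.0760) and mt-Co3 at −0.05 (adjusted p = 0.901). In KO mt-Nd1, mt-Nd2, mt-Nd4, mt-Cytb and mt-Co1 were called, and mt-Nd6 was at −0.78 with an adjusted p of 0.0545. mt-Nd6 is the only member on the light strand, and its change had the same sign as those of the heavy strand genes.

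Other features of the libraries moved with compartment, and their part in these results was not tested. Per the paper, all hydrogel pools but not all core pools passed its limits on RNA concentration and integrity (a number of at least 2). RNA integrity of single libraries was not analysed here, and its part was not tested either. The marker counts that follow stand beside the shares of all genes tested. These were 33.9% higher and 35.4% lower in WT, and 25.5% higher and 30.2% lower in KO. Marker counts near these shares, or from few genes, are not read as shifts in cell types. Macrophage and leukocyte markers were higher in WT hydrogels for 7 of 10 genes and for 0 of 10 in KO at the adjusted threshold in edgeR (0 at an unadjusted p under 0.05), with sums of 8232 to 9553 CPM in WT cores, 9267 to 15940 in WT hydrogels, 8136 to 9432 in KO cores and 2043 to 26123 in KO hydrogels. Tenocyte and fibroblast markers were lower for 7 of 10 in WT and 4 of 10 in KO, with sums of 37157 to 63583 CPM in WT cores and 24055 to 46079 in WT hydrogels. In KO they ran from 35529 to 54857 CPM in cores and from 18923 to 66610.1 in hydrogels. Schwann cell markers were higher for 3 of 4 tested in each genotype. Chondrocyte markers were higher for 3 in each and lower for 1 in WT, endothelial markers higher for 2 and lower for 1 in WT with Cldn5 below 0.5 CPM, and the adipocyte marker Fabp4 was higher with Ucp1 and Cidea below 0.5 CPM.

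Transcript length also moved with the result. The tested nuclear members had a median transcript of 745.5 bases, against 2864 bases for all protein-coding genes tested in WT. Of all 1097 tested protein-coding genes shorter than 1000 bases, 56.0% were higher in WT hydrogels with a median of 0.37, against 35.2% with a median of 0.04 for the 13426 longer ones. Members shorter than 1000 bases had a median of 0.66 with 94.2% higher, and longer members had 0.54 with 92.3% higher. Both length classes of members thus lay above all genes of their class, and the part that length played was not tested.

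Because most tested nuclear members were higher in hydrogels, promoters were read from RefSeq (build GRCm38.p6) for the 66 of 80 nuclear members that matched, among them Atp5l and Cox8b, which were lower in WT. Over 300 bases, from 250 before to 50 after the start, 14 of 66 (21.2%) held GCGCA and GCGC with any 1 base between them on either strand, a letter pattern of nuclear respiratory factor 1, against 4.78% of 27025 promoters. CCGGAAG, an ETS family pattern that GABP also recognises, was held by 13 (19.7%), against 9.12%. AAGATGGC, a pattern of YY1, was held by 9 (13.6%), against 2.88%, and TATAAA by 7 (10.6%), against 14.2%. At least 1 of the first 3 was in 32 (48.5%), against 15.2% of all promoters. The 27025 promoters, 1 per gene, were not limited to protein-coding genes or to genes tested here. The part of that choice in the differences was not tested. A match is a string of letters, not a site of binding, and no factor was measured here. The promoters below, 120 bases before to 30 after the start, belong to the called member of each complex with the lowest p in WT that holds the ETS letters in this window. Capitals mark CCGGAAG or its reverse complement. They lie at chr8:83566638-83566787 (plus strand), chr10:80406792-80406941 (minus), chr19:7217587-7217736 (minus) and chr2:174464072-174464221 (minus).
Ndufb7: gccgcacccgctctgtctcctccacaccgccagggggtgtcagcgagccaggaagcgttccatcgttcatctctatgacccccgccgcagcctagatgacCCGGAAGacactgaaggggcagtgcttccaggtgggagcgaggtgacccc
Uqcr11: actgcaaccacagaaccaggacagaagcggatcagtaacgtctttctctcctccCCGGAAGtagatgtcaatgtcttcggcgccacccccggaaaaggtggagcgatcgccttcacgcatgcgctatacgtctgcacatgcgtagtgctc
Cox8a: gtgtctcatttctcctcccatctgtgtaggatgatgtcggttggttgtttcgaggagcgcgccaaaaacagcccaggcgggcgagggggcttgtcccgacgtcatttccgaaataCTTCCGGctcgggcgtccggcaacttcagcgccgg
Atp5e: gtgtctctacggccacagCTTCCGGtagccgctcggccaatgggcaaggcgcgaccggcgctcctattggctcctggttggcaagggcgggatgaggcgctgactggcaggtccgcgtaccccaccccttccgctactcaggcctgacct
Hydrogel over core, these 4 genes changed by 0.65, 0.86, 0.77 and 0.86 on the log2 scale in WT.

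Genes that work with the complexes were read from lists, against 33.9% higher and 35.4% lower of all genes in WT and 25.5% and 30.2% in KO. All 6 genes of complex II, cytochrome c1 (Cyc1) and cytochrome c (Cycs) were higher in hydrogels in both genotypes, with medians of 0.72 and 0.86. Cycs rose by 0.93 and Sdhd, a membrane anchor of complex II, by 0.82 in WT. Of 78 mitochondrial ribosomal proteins, which translate the mitochondrial messages, 65 were higher and 4 lower in WT, and 63 higher and 2 lower in KO. Of 7 tested uncoupling and ADP/ATP exchange genes 7 were higher in WT and 6 in KO, with the ADP/ATP carrier Slc25a5 at 1.01 in WT. Of 46 assembly factors 24 were higher and 4 lower in WT and 26 higher and 2 lower in KO, Sdhaf4 (1.01) and Cox20 (−0.89) being examples in WT.

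Genes that copy and transcribe mitochondrial DNA were read against the same shares of all genes. Of 9 genes for mitochondrial DNA copying and its nucleotides, 0 were higher and 5 lower in each genotype, among them in WT Polg2, an accessory subunit of the mitochondrial DNA polymerase (−0.76), Ssbp1, the single-strand binding protein (−0.40), and Dguok, which salvages deoxynucleosides (−0.44). Of 24 tested genes of mitochondrial transcription, RNA stability and biogenesis, 8 were higher and 3 lower in WT, and 7 higher and 4 lower in KO. The higher counts of this list are close to the share over all genes and the lower ones are below it. Esrra, a nuclear receptor that activates respiratory genes, was higher by 0.78 in WT, and Mterf2, of the mitochondrial termination factor family, was lower (−0.98). Of 8 hypoxia-responsive mitochondrial genes 3 were higher in WT and 2 in KO, which is also close to the shares over all genes.

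Whether interleukin-6 status of the core altered these genes was asked in 3 comparisons of KO with WT. In hydrogels, edgeR called 0 of 86 tested members, as it called 0% of all genes, with 8 nuclear members higher and 0 lower at an unadjusted p under 0.05, and DESeq2 called 0. The share of all genes at this unadjusted p alone is not given here or below. Counts at it are therefore not read as results about the members. Of the nuclear members 72 of 77 lay above 0, with a median log2 fold change of 0.09 against −0.01 for all genes. Tested protein-coding genes with transcripts under 1000 bases had a median of 0.06, and the part of length was not tested. Ndufs4 ranged from 23.1 to 28.9 CPM (median 24.98) in WT and from 26.2 to 31.4 (median 30.2) in KO hydrogels, which overlap (0.22 ± 0.07, adjusted p = 0.9997 in edgeR). Atp5e was at 0.25 ± 0.08. The study's own thresholds, an unadjusted p under 0.05 and a log2 fold change beyond 0.5, were applied here to edgeR. The one member past them was Cox4i2, against 0.755% of all genes. The study applied them to DESeq2, so its own list of genes can differ.

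In cores with fibroblasts the sign of the nuclear members was the other one. Of 78, 67 lay below 0, with a median of −0.10 against 0.00 for all genes, and 9 of 10 mitochondrial members lay above 0. Protein-coding genes with transcripts under 1000 bases had a median of −0.03. edgeR called 0 of 88 members and 0% of all genes, with 1 higher and 5 lower at an unadjusted p under 0.05, and DESeq2 called 0. Ndufa4 stood at 37.7, 37.1, 42.2 and 34.5 CPM in WT and at 34.7, 32.7, 29.5 and 30.3 CPM in KO, the highest KO library lying just above the lowest WT one (−0.29 ± 0.09, adjusted p = 0.477 in edgeR). By the study's thresholds, applied to edgeR, Cox4i2 again was the one member past them, against 2.44% of all genes.

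In cell-free cores 0 of 86 members and 0% of all genes were called, with 0 members at an unadjusted p under 0.05, and DESeq2 called 0. The nuclear median was 0.15 with 72 of 77 above 0, but without replicate 1 of the KO cell-free cores it was −0.08 with 63 below 0. That library stood at 231 CPM for Cox4i1, against 111 to 162 CPM in the other 3. With all libraries, protein-coding genes with transcripts under 1000 bases had a median of 0.11, and the part of length was not tested. The interaction of genotype with fibroblasts in cores, which shares these libraries, called 0% of genes and 0 members with edgeR (1 at an unadjusted p under 0.05) and 0 with DESeq2. Its nuclear median was −0.24, and −0.01 without the same library. Protein-coding genes with transcripts under 1000 bases had a median of −0.14 with all libraries.

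A test of whether the compartment difference itself depends on genotype was added after the data had been seen. It called 0% of genes and 0 members with edgeR and 0 with DESeq2. At an unadjusted p under 0.05 edgeR gave 24 nuclear members, all with a larger hydrogel over core ratio in KO. The share of all genes at that p is not given here, so this count is not read as a result about the members. Of 78 nuclear members 75 lay above 0, with a median of 0.22 against 0.03 for all genes. Medians by transcript length were not computed for this test. Atp5e had the lowest p (0.59 ± 0.15, adjusted p = 0.9999), followed by Ndufs4 at 0.37 ± 0.10 and Ndufa4 at 0.49 ± 0.14. It uses the same libraries as the comparisons above and is not a separate line of evidence.

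**Figure D4:**
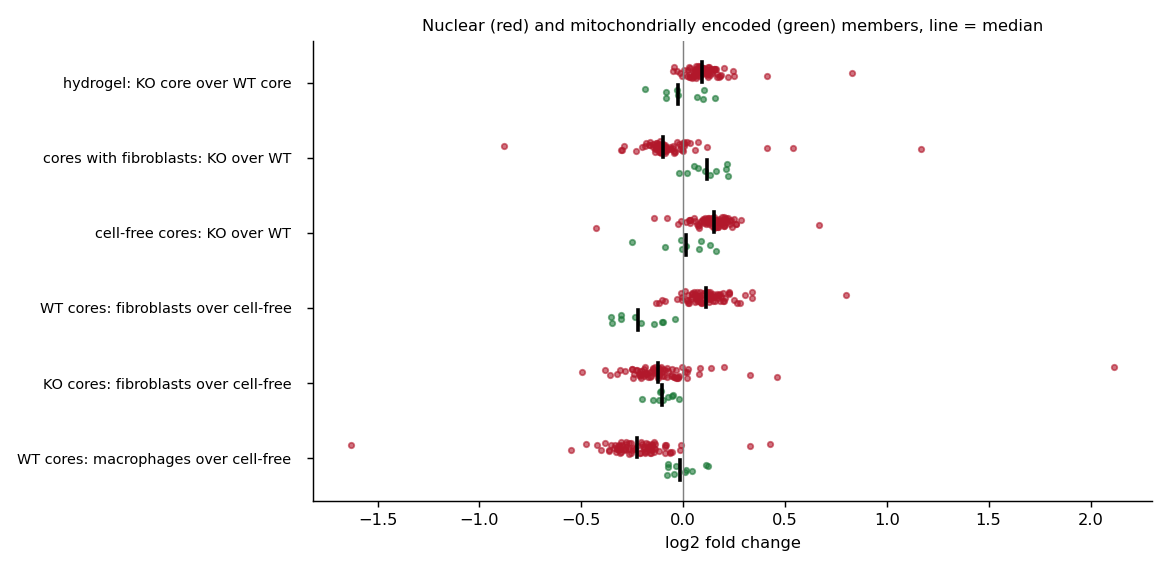
Log2 fold change of each tested member in the genotype and co-culture comparisons (red nuclear, green mitochondrially encoded), with the line at each median. Nuclear medians are 0.09 (hydrogels, KO over WT), −0.10 (cores with fibroblasts, KO over WT), 0.15 (cell-free cores, KO over WT), 0.11 (WT, fibroblasts over cell-free), −0.22 (WT, macrophages over cell-free) and −0.12 (KO, fibroblasts over cell-free).

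Few oxidative phosphorylation genes of the core were called between hydrogels with and without seeded cells. With fibroblasts, 1 nuclear member of WT cores was called higher, against 2.46% of all genes. It was Ndufv3, a small subunit of the NADH-oxidising arm, which stood at 34.4, 38.4, 39.3 and 38.6 CPM in cell-free cores and at 42.7, 43.4, 45.8 and 45.5 CPM with fibroblasts. These ranges did not meet (0.34 ± 0.07, adjusted p = 0.0380). The count was 13 without replicate 4 of the WT cell-free cores and 0 without any 1 of 6 other libraries. Cox6c was next, at 0.27 with an adjusted p of 0.0557. The nuclear median was 0.11 and all 10 tested mitochondrial members lay below 0, with a median of −0.22 and 0 called by edgeR (0 at an unadjusted p under 0.05). Protein-coding genes with transcripts under 1000 bases had a median of 0.01.

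In KO cores with fibroblasts edgeR called 0 of 87 members, against 0.432% of all genes, with 1 at an unadjusted p under 0.05, and DESeq2 called 1. The nuclear median was −0.12, and 0.08 without replicate 1 of the KO cell-free cores. With all libraries, protein-coding genes with transcripts under 1000 bases had a median of −0.11, and the part of length was not tested. The 1 member called by DESeq2 was Cox4i2, which also passed in edgeR with the replicate number as a block.

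With macrophages in the hydrogel, 75 of 77 nuclear members of WT cores lay below 0, with a median of −0.22 against 0.01 for all genes. Tested protein-coding genes with transcripts under 1000 bases had a median of −0.13, and the part of length was not tested. Of the nuclear members, Cox4i2 alone passed the threshold, against 4.65% of all genes called lower. At an unadjusted p under 0.05 there were 15 lower and 0 higher, counts given without the share of all genes at that p. Complex IV had a median of −0.32, complex III −0.28, complex V −0.26 and complex I −0.18. Atp5f1, a subunit of the peripheral stalk, was at −0.35 with an adjusted p of 0.10005. With the replicate number as a block 3 were called, and without single libraries 0 to 3, the call being lost without any 1 of the 4 cell-free cores or of replicates 1 and 2 with macrophages. Macrophage markers were not higher in these cores: 2 of 10 were lower and 0 higher, Lyz2 averaging 5502 CPM with macrophages and 8287 CPM without.

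Cox4i2, the alternative form of subunit 4 that is induced by low oxygen and found mainly in lung, was at a low level throughout. It stood at 0.719, 0.679, 0.900 and 0.613 CPM in WT cell-free cores and at 1.44, 1.15, 1.20 and 0.933 CPM in WT cores with fibroblasts. With macrophages it stood at 0.184, 0.289, 0.386 and 0.0982 CPM. In KO cores it stood at 0.906, 0.888, 0.320 and 0.410 CPM when cell-free and at 2.56, 4.46, 1.48 and 2.51 CPM with fibroblasts. The 3 WT groups did not overlap each other, KO cores with fibroblasts lay above all other cores, and the 2 cell-free groups overlapped.

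In hydrogels Cox4i2 ran from 1.41 to 3.70 CPM around WT cores (median 1.97) and from 1.79 to 6.29 CPM around KO cores (median 3.45), which overlap. Where Cox4i2 was lowest, in WT cores with macrophages and in cell-free cores, a library holds few counts of it. The ubiquitous Cox4i1 was far more abundant, at 175 CPM per kilobase against 1.61 for Cox4i2 in WT cores with fibroblasts. In edgeR, macrophages over cell-free gave −1.63 ± 0.36 (adjusted p = 0.0294), fibroblasts over cell-free 0.80 ± 0.22 in WT (adjusted p = 0.0692) and 2.12 ± 0.43 in KO (adjusted p = 0.0707). KO over WT gave 1.17 ± 0.32 in cores with fibroblasts (adjusted p = 0.457) and 0.83 ± 0.29 in hydrogels (adjusted p = 0.9997), and the genotype by fibroblast interaction gave 1.31 ± 0.51 (adjusted p = 0.985). WT hydrogels over cores gave 0.86 ± 0.26 (adjusted p = 0.0109) and KO 0.52 (adjusted p = 0.259).

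**Figure D5:**
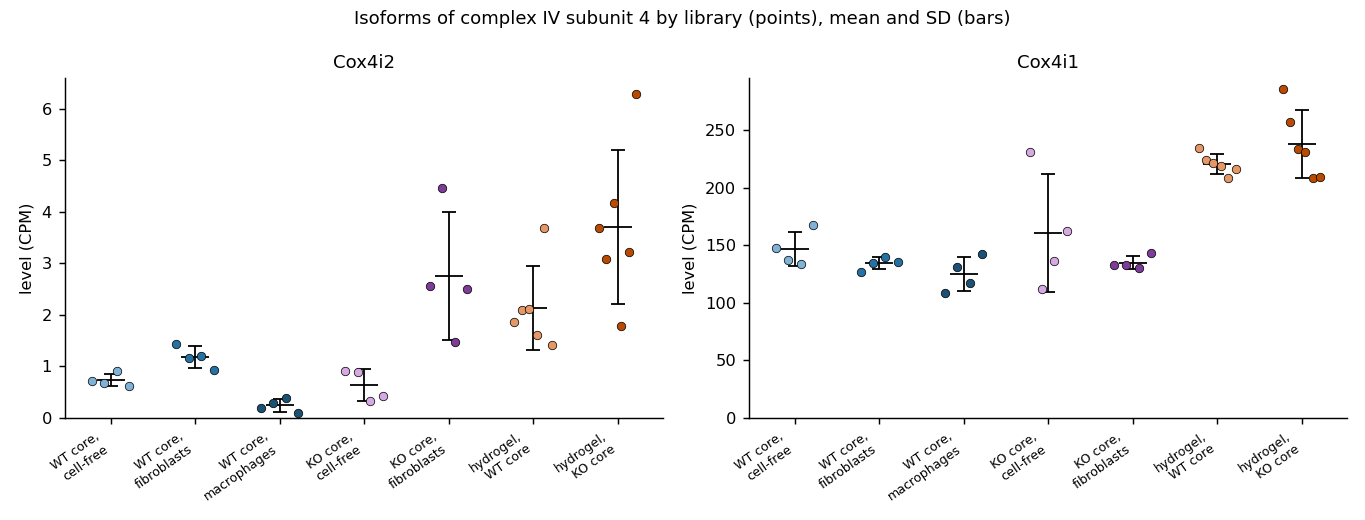
Level of Cox4i2 and of Cox4i1 in each of the 32 libraries by group (CPM). Points are libraries, and bars give the mean and SD. Cox4i2 is lowest in WT cores with macrophages (0.0982 to 0.386) and reaches 6.29 in hydrogels around KO cores, while Cox4i1 spans 208 to 286 in hydrogels and 108 to 231 in cores, the 231 being replicate 1 of the KO cell-free cores.

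Two-sided exact permutation tests on log2(CPM + 0.1) of Cox4i2 were run for 8 comparisons. They gave an exact p = 0.0286, the smallest that 4 against 4 allows, for fibroblasts over cell-free in each genotype, for macrophages over cell-free and for KO over WT in cores with fibroblasts (0.0457 after adjustment over the 8). Hydrogel KO over WT gave an exact p of 0.0455 (adjusted 0.0606), WT hydrogel over core 0.0190 (adjusted 0.0457), KO hydrogel over core 0.295 (adjusted 0.337) and cell-free KO over WT 0.429 (adjusted 0.429). Several of these share their control samples. Cox4i2 was chosen for these tests for its pattern in these same libraries, so they are not separate evidence for it. The adjustment covers the 8 comparisons only, not the choice of Cox4i2 among the members or all genes.

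Among the 8 hypoxia-responsive mitochondrial genes listed, 5 were higher with fibroblasts in WT cores, against 2.46% of all genes, and 4 in KO cores, against 0.432% called in either direction. With macrophages 0 were called by edgeR (1 lower at an unadjusted p under 0.05). Higd1a, a stabiliser of complexes III and IV, was higher by 1.08 (adjusted p = 0.00991) in WT. Pdk1, which closes the pyruvate dehydrogenase route into the mitochondrion, was higher by 1.03 (adjusted p = 0.0138) in WT and 1.47 (adjusted p = 0.0109) in KO. Bnip3, a mitophagy receptor, was higher by 1.18 and 1.77. Ndufa4l2, the hypoxia-induced relative of Ndufa4, averaged 19.8 CPM in WT cell-free cores and 61.6 CPM with fibroblasts (1.74 ± 0.25, adjusted p = 0.0120), and 21.9 and 154 CPM in KO (2.86 ± 0.42, adjusted p = 0.0267). With macrophages it averaged 19.9 CPM. KO over WT with fibroblasts gave 1.31 ± 0.35 for Ndufa4l2 (adjusted p = 0.457), and the interaction 1.11 ± 0.51 (adjusted p = 0.985). Between genotypes edgeR called 0 of the 8 genes in each comparison, with 4 higher at an unadjusted p under 0.05 in hydrogels and 4 in cores with fibroblasts.

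Outside the hypoxia-responsive genes the lists barely passed the threshold among cores. With macrophages, Mrpl19 was lower (−0.52, adjusted p = 0.0141, 1 of 78 ribosomal proteins) and so was Vdac2, a channel of the outer membrane (−0.63, adjusted p = 0.0479, 1 of 7). With fibroblasts in WT, Ucp2, an uncoupling protein of the inner membrane, was lower (−0.41, adjusted p = 0.0484). For complex II, Cyc1 and cytochrome c, the assembly factors, and the transcription and DNA copying lists, edgeR called 0 in every comparison among cores and between genotypes, with 0 to 5 genes of a list at an unadjusted p under 0.05.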

How the data were processed

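RNA of 32 assembloid samples was sequenced from ribosome-depleted, stranded TruSeq libraries, with an RNA integrity number of at least 2 accepted. The authors pseudo-aligned reads with kallisto 0.46.1 against GRCm39, per the submitters' processing notes, and deposited estimated counts per gene, which are whole numbers and not normalized. No source used here gives the annotation release. Division of reads between near-identical sequences happened before deposit. Columns of the files other than the matched counts were not used. Symbols, transcript lengths and 31-base words came from GENCODE vM21 (GRCm38), matched by gene ID for 25587 of 25700 genes, and promoters from RefSeq.

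Groups came from the sample labels. Counts were filtered with filterByExpr, scaled by TMM and fitted with the quasi-likelihood test of edgeR 4.0.16 (limma 3.58.1, R 4.3.3) over all genes of the 2 groups compared, and over 4 groups for interactions. Calls were made at a Benjamini-Hochberg adjusted p under 0.05, and the SE of a log2 fold change was its size divided by the root of F. DESeq2 1.42.0, which the authors used, was an alternative, with RLE size factors, scaling without mitochondrial genes, other count filters, blocks and left-out libraries. Sums and ranges used CPM of the library total, computed with pandas 2.3.3 in python 3.11.15. The fitting step was tested on simulated counts. No 2 libraries of a group were duplicates (the smallest chi-square per gene between them was 21.5). The cores of a pool came from 1 mouse, and p-values measure the spread between pools.

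The members and lists were chosen with earlier results of these data known. Genes named singly were the 13 mitochondrial members, up to 4 called nuclear members of lowest p in each direction (or the 2 of lowest p when none was called), the isoforms of complex IV, the highest and lowest members per length, and up to 4 list genes of lowest p. Genes named beyond this, such as Ndufb7, Uqcrfs1, Cox5a, Ndufab1 and Atp5s, were chosen after their values were seen. The statistics above come from fits without a block unless a block is named, so they do not take pairing into account. Blocks by replicate number, title code or run code were used in alternative fits only. Samples with the same replicate number were read as pairs where they deviated together in every pair (residual correlation over 0.1). This held for hydrogels KO over WT (0.26 to 0.60), WT macrophages over cell-free (0.19 to 0.34) and KO fibroblasts over cell-free (0.21 to 0.39), and for title codes shared between hydrogel and core.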

Additional observations from a re-analysis of the deposited data

Results flagged for a closer look

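Dixon's test was run in each of the 7 groups on the 2 summed shares and their ratio, the 7 measured mitochondrial members and Cox4i2, and it set a library apart in 7 of 77 tests, where chance sets apart about 1 in 20 groups. In hydrogels around KO cores, replicate 5 lay apart for 5 mitochondrial members: mt-Nd2 at 167 CPM (others 51.6 to 90.7), mt-Nd4 at 238 (70.7 to 119), mt-Nd5 at 487 (125 to 253), mt-Nd6 at 72.4 (18.9 to 38.9) and mt-Cytb at 819 (354 to 491). The same library held 1497 CPM of Lyz2, the lowest of its group, whose highest was 19144 CPM. These members share 1 precursor transcript on each strand and are not separate observations, and the part of macrophage content was not tested. In KO cores with fibroblasts, replicate 3 lay apart for mt-Nd5 at 556 CPM (others 316 to 342). In hydrogels around WT cores, replicate 5 lay apart for Cox4i2 at 3.70 CPM (others 1.41 to 2.11).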

How the results depend on the processing

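Over 262 alternatives for 28 summary results, 226 stayed within 1.5 times the count or 1 SD of the level, 36 moved and 0 reversed; of 801 for 47 single genes, 755 kept direction and side of the threshold, 30 lost and 16 gained the call. Members called in WT cores with fibroblasts numbered 1, but 2 with DESeq2 or a run code block, 0 with all 5 core groups in 1 fit or a log2 fold change beyond 0.5, and 0 to 13 without single libraries. With macrophages there was 1, but 0 with at least 10 counts in every sample, 6 with a run code block and 0 to 3 without single libraries. In KO cores with fibroblasts there were 0, but 1 with DESeq2, with no filter or with all 5 core groups in 1 fit, and 0 to 1 without single libraries. Mitochondrial members lower in KO hydrogels ranged from 2 to 8 without single libraries. Where the numbers pair the samples, the replicate block gave 3 with macrophages, 1 in KO cores with fibroblasts and 0 between hydrogels of KO and WT cores, and by title code 84 in WT (82 without) and 81 in KO (78 without) hydrogels over cores. Elsewhere samples with the same number did not deviate together in every pair (residual correlation −0.18 to 0.50), and the block gave 1 for WT fibroblasts and 0 for KO over WT; it changed no other count by over 1.5 times. With CPM scaled by TMM over all libraries the nuclear share was 0.587% and 0.631% in hydrogels around WT and KO cores and 0.289% in WT cores with macrophages, and the mitochondrial share 0.655% in hydrogels around WT cores. Except where fewer samples were fitted, the cause was not tested. Low levels limit Cox4i2, Cox6a2, Cox6b2, Cox8b and the 6 low mitochondrial members.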
